A study of Mus musculus with 12 samples.

Results

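Transcripts of 8 genes of the insulin-like growth factor (IGF) axis were followed across 12 RNA-seq libraries of mouse embryonic fibroblasts (MEFs). They were the binding protein genes Igfbp2, Igfbp3, Igfbp4, Igfbp5, Igfbp6 and Igfbp7, the ligand gene Igf1 and the receptor gene Igf1r. The genes were chosen by symbol from a table of 55573 genes, because Igfbp6 had been seen to rise with induction of the reprogramming factors. All 8 were present, and all 8 were among the 19174 genes that passed the filter on low counts. Since the rise with induction chose the set, differences with induction, and how they vary between clones, are given for these genes as values without p-values, and nothing is read from counts of calls for them.

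The fibroblasts carried a doxycycline-inducible cassette of the factors Oct4, Sox2, Klf4 and Myc (together OSKM), whose expression turns some fibroblasts into pluripotent stem cells, and came from C57BL/6 mouse embryos at E13.5 (embryonic day). Cells of 3 clones, each from a separate embryo per the study, were left uninduced (MEF) or received 1 µg/ml doxycycline throughout (OSKM), and each state was grown with no added vitamin B12 or with 2 µM of it (MEF+B12 and OSKM+B12). All groups carried the cassette, were grown in stem cell medium and were collected at 72 h, so there were 4 groups of 3 libraries with 1 library of each clone in each group. Only induced cells received doxycycline, so the drug and the factors cannot be told apart. The library titles of clone 1 carry a later year than those of the other 2 clones.

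IGF1 and IGF2 are secreted growth factors that signal through the IGF1 receptor, a tyrosine kinase upstream of PI3K, AKT and mTOR and of the MAP kinases. Most IGF in body fluids is held by binding proteins, which carry it, keep it from the receptor and release it when they are cleaved. Fibroblasts are a known source of several of these proteins. IGFBP6 is known for its preference for IGF2, and IGFBP7 for its low affinity for IGFs.

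The libraries held between 56971244 and 79236795 counted read pairs. As a check of the labels, Pou5f1, which encodes Oct4, was between 0 and 0.468 CPM (counts scaled to library size) in the 6 uninduced libraries and between 2.34 and 20.7 CPM in the 6 induced libraries. It rose with induction by 5.65 ± 0.21 on the log2 scale without B12 (estimate ± SE, edgeR quasi-likelihood test, adjusted p = 5.95e-07). Clone 3 had the lowest values among induced libraries, with 2.34 to 2.86 CPM against 18.5 to 20.7 CPM in clones 1 and 2. Sox2 had the same split, with 2.18 to 2.33 CPM in induced clone 3 against 13.3 to 17.8 CPM in induced clones 1 and 2. Myc was 20.1 to 21.9 CPM in induced clone 3 and 43.6 to 53.4 CPM in induced clones 1 and 2. Klf4 did not rise, with 118.5 to 143.3 CPM in uninduced and 108.3 to 122.5 CPM in induced libraries. Its log2 fold change with induction was -0.16 ± 0.05 without B12 and -0.07 ± 0.05 with B12. Fibroblast markers were high, with the collagen gene Col1a1 at 25440 CPM or more in every library and Pdgfra at 387 to 564 CPM. Epithelial Epcam had at most 9 counts, endothelial Emcn at most 3 and muscle Myod1 at most 3 counts in any library, whereas the macrophage gene Lyz2 was at 739 to 1759 CPM. Other markers of these cell types were detected, with endothelial Tek at 34.3 to 138.7 CPM, mesothelial Upk3b at 7.78 to 22.7 CPM and muscle Des at 2.28 to 7.62 CPM.

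Of the 8 genes, Igfbp6 and Igfbp2 had the widest range of the log2 fold change with induction over the clones, and their start regions are shown for that reason. The windows are RefSeq sequence on build GRCm38.p6, from 250 bases before to 50 bases after the annotated start, 5′ to 3′ on the + strand. Igfbp6 is chr15:102143936-102144235 and Igfbp2 is chr1:72824230-72824529. Capitals mark matches on either strand to CACCC, the core of Klf sites, to the TATA box with the letters TATAAA, to the GC box, spelled GGGCGG, and to the E-box known to bind Myc, which reads CACGTG.
Igfbp6: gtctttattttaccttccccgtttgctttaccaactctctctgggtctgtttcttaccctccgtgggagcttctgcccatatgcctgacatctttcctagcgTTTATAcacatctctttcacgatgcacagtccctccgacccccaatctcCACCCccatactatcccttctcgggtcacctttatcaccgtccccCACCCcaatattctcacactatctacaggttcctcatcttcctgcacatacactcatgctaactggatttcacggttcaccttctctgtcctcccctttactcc
Igfbp2: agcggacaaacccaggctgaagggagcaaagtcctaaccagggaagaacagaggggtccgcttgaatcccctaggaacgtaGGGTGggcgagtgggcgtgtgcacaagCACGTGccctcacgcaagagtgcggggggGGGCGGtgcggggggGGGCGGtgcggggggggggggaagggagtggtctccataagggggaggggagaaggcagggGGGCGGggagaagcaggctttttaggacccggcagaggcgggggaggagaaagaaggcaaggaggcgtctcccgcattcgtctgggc
The Igfbp6 window held 2 Klf cores and 1 TATA box match, the latter at bases -148 to -143 from the start (base 0). The Igfbp2 window held 3 GC boxes, 1 Klf core and 1 E-box at bases -142 to -137, and its GC content of 67% compared with 49.7% in the Igfbp6 window. Over all 32851 windows of the same length, the Klf core was present in 57.5%, the GC box in 35.7%, the TATA box in 13.6% and the E-box in 7.15%. Neither window held the octamer bound by Oct factors (ATGCAAAT), which was present in 1.74% of all windows, and neither held a core of Sox sites (ACAAAG), present in 18.7%. The marked matches do not overlap each other. The RefSeq start of Igfbp6 lies upstream of the start of the Ensembl gene model given below with its values, and the Igfbp2 window is that of the first of its 2 RefSeq starts. These matches describe the letters of the windows only.

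Levels were compared between genes as CPM per kilobase of merged exons, averaged over the 12 libraries (mean ± SD, n = 12). Igfbp4 led with 528 ± 154, followed by Igfbp3 with 494 ± 36.9 and Igfbp5 with 294 ± 129.9. Igfbp7 followed with 191 ± 14.6, Igfbp2 with 175 ± 30.9 and Igfbp6 with 146 ± 61.4. The ligand Igf1 stood at 35.4 ± 4.23 and the receptor Igf1r at 2.99 ± 0.322. On this scale the 6 binding protein genes were above Igf1 in all 12 libraries, and Igf1 was above Igf1r in all 12. Neighbours within the binding proteins were not all separated, since Igfbp4 exceeded Igfbp3 in 6 of 12 libraries, Igfbp7 exceeded Igfbp2 in 9 and Igfbp2 exceeded Igfbp6 in 8. Scaling by the longest transcript placed Igfbp3 above Igfbp4 and Igfbp2 above Igfbp7. The place of Igf1 depended on length scaling. By mean CPM alone Igf1 (350.5) stood above Igfbp2 (322.7), Igfbp7 (231.4) and Igfbp6 (162.8), and Igfbp5 stood above Igfbp3.

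Igfbp6 (ENSMUSG00000023046, GRCm38 chromosome 15, 102144362 to 102149511) was the binding protein gene that was higher in induced libraries. In MEF it was 136, 135 and 110.5 CPM in clones 1, 2 and 3. In MEF+B12 it was 119, 119 and 99.4 CPM. In OSKM it was 265, 251 and 113 CPM, and in OSKM+B12 255, 245 and 106 CPM. Induced libraries of clones 1 and 2 stood at 245 CPM or more, above all other libraries, while induced libraries of clone 3 lay within the range of the uninduced ones. Its mean over the 3 clones was 127 CPM in MEF (SD 14.4) against 209 CPM with the factors induced (SD 83.8), the wider spread being that between clone 3 and the others. The fitted log2 fold change with induction was 0.63 ± 0.19 without B12 and 0.75 ± 0.19 with B12.

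Within clones, averaged over both B12 conditions, the log2 fold change of Igfbp6 was 1.03 ± 0.04 in clone 1, 0.97 ± 0.04 in clone 2 and 0.07 ± 0.04 in clone 3. Each clone gave 1 library per group, so the ± of within-clone values, here and below, is not replicate error of a clone. It comes from a fit that uses both B12 libraries of a clone and state, with a residual pooled over clones. The lower value of clone 3 stood in both B12 conditions, at 0.03 without B12 and 0.10 with B12, against 0.90 to 1.10 in clones 1 and 2. Clones 2 and 3 share a title year, and whether the title year bears on these values was not tested. These within-clone values are a description, since they come from the libraries whose rise chose the gene.

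**Figure D1:**
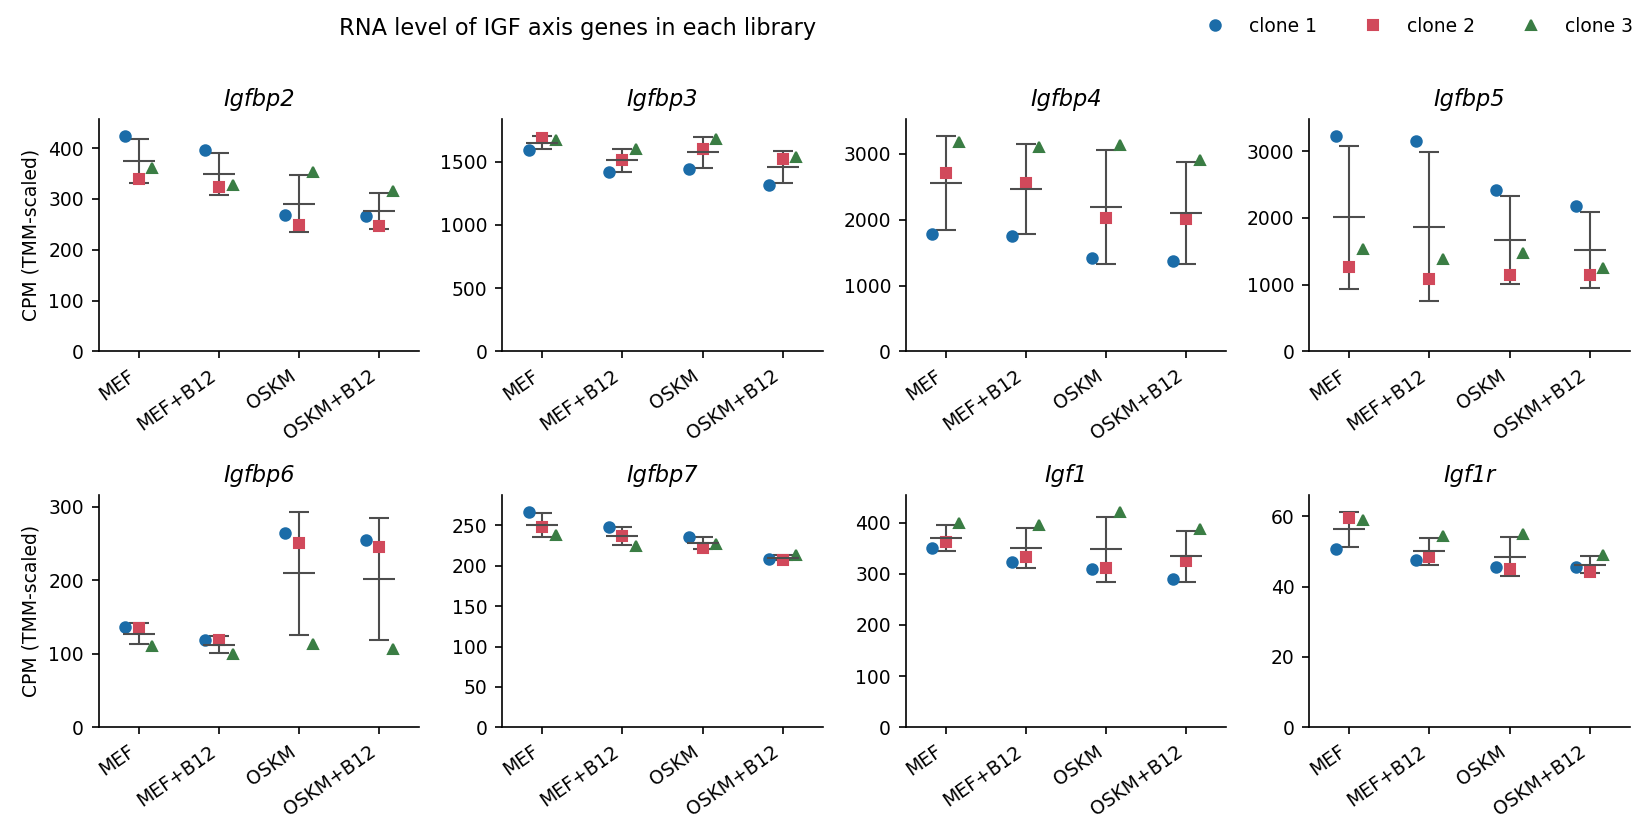
RNA level in CPM (y axis, from 0, own scale per gene) of the 8 genes in the 4 groups (x axis), with a symbol per clone and the group mean ± SD as a dash with bars (n = 3). Igfbp6 is at 245 CPM or more in clones 1 and 2 when induced and at 113 CPM or less in induced clone 3, while Igfbp5 stands highest in clone 1 in every group.

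Igfbp2 (ENSMUSG00000039323, chromosome 1, 72824503 to 72852474) encodes a binding protein with preference for IGF2 that is abundant in the embryo. It was 424, 339 and 361 CPM in MEF for clones 1, 2 and 3, and 396, 323 and 328 CPM in MEF+B12. It was 268, 249 and 354 CPM in OSKM, and 267, 246 and 316 CPM in OSKM+B12. Induced libraries of clones 1 and 2 were the 4 lowest of the 12, and those of clone 3 overlapped its uninduced ones. The log2 fold change with induction was -0.62 ± 0.05 in clone 1, -0.42 ± 0.05 in clone 2 and -0.04 ± 0.05 in clone 3. The direction was opposite to that of Igfbp6 in the same libraries.

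**Figure D2:**
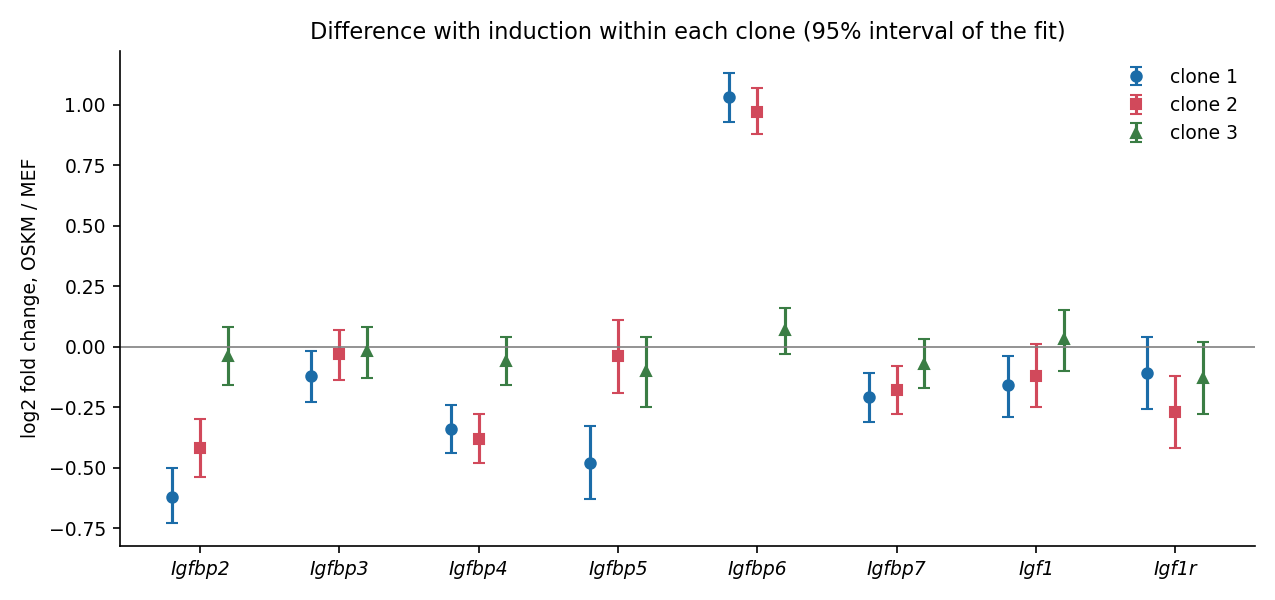
Log2 fold change of OSKM over MEF (y axis), averaged over both B12 conditions, for the 8 genes (x axis) in clones 1, 2 and 3, with the 95% interval of the edgeR fit. The intervals use both B12 libraries of a clone and state and are not replicate error of a clone. Igfbp6 lies near 1 in clones 1 and 2 and at 0.07 in clone 3, and Igfbp2 and Igfbp4 lie below 0 in clones 1 and 2.

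Igfbp4 (ENSMUSG00000017493, chromosome 11, 99041244 to 99054392), whose protein holds IGFs away from the receptor until the protease PAPP-A cleaves it, differed mostly between clones. It was 1785, 2711 and 3187 CPM in MEF, and 1749, 2551 and 3108 CPM in MEF+B12. It was 1418, 2020.7 and 3135 CPM in OSKM, and 1374, 2017 and 2915 CPM in OSKM+B12. Clone 1 was lowest and clone 3 highest in all 4 groups. The log2 fold change with induction was -0.34 ± 0.05, -0.38 ± 0.05 and -0.06 ± 0.05 in clones 1, 2 and 3. Of the 31-base words of Igfbp4, 5.78% also occurred in transcripts of other genes, against at most 0.243% for the other 7 genes, so its count is the least certain.

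Igfbp5 (ENSMUSG00000026185, chromosome 1, 72857932 to 72874884) lies tail to tail with Igfbp2, with 5457 bases between them, and encodes a binding protein that associates with the extracellular matrix. It was 3229, 1266 and 1528 CPM in MEF, and 3147, 1083 and 1384 CPM in MEF+B12. It was 2412, 1140 and 1472 CPM in OSKM, and 2175, 1138 and 1243 CPM in OSKM+B12. All 4 libraries of clone 1, at 2175 CPM or more, were above the 8 libraries of clones 2 and 3, at 1528 CPM or less. The log2 fold change with induction was -0.48 ± 0.07 in clone 1, -0.04 ± 0.07 in clone 2 and -0.10 ± 0.07 in clone 3. Clone 1 was thus highest for Igfbp5 and lowest for Igfbp4 in every group.

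Igfbp3 and Igfbp7 were the steadiest binding protein genes. Igfbp3 (ENSMUSG00000020427, chromosome 11, 7206086 to 7213923), whose protein is the main IGF carrier of serum, ranged from 1311 to 1686 CPM over the 12 libraries. Its log2 CPM had an SD of 0.11 over the 12 libraries, as had that of Igfbp7, against 0.57 for Igfbp5 and Igfbp6. Igfbp7 (ENSMUSG00000036256, chromosome 5, 77349240 to 77408041) ranged from 237 to 267 CPM in MEF and from 225 to 248 CPM in MEF+B12. It ranged from 222 to 236 CPM in OSKM and from 207 to 214 CPM in OSKM+B12. The 3 libraries of OSKM+B12 were the lowest of the 12, just below the lowest library of OSKM. Polr2b overlaps Igfbp7 on the opposite strand, and the counting used strand.

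The summed level of the 6 binding protein genes was between 1639 and 2021.8 CPM per kb over the 12 libraries. Within clone 3 it ran from 1802 to 2002 CPM per kb. In clone 1, Igfbp6 made 5.65% to 6.05% of the sum in uninduced and 13.51% or more in both induced libraries. In clone 2 its share was 6.20% to 6.47% and 13.3%, respectively. In clone 3 it stayed between 4.71% and 5.31% in all 4 libraries. The share of Igfbp5 was 22.1% to 27.6% in clone 1 and 10.49% to 12.7% in clones 2 and 3, and that of Igfbp4 was 18.2% to 20.9% in clone 1 and 36.0% to 37.1% in clone 3.

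**Figure D3:**
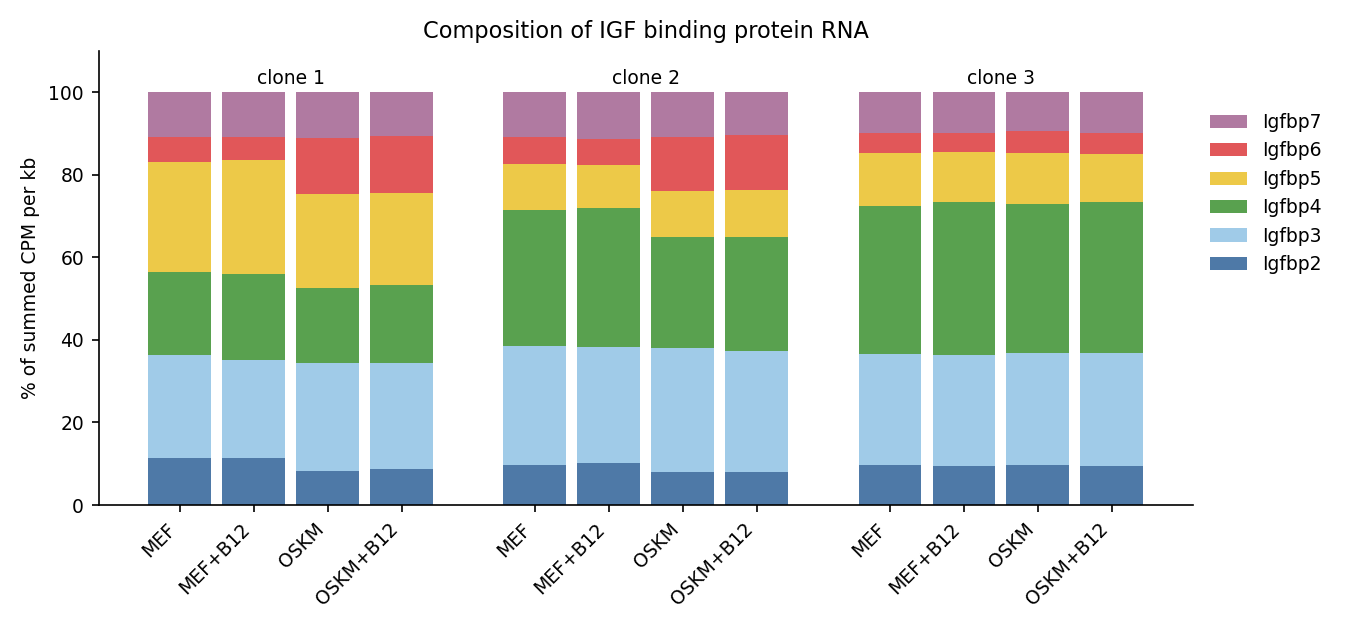
Share of each binding protein gene in the summed CPM per kb of the 6 genes (y axis, percent), as stacked bars for the 12 libraries (x axis) ordered by clone and group. The Igfbp6 segment widens to 13.3% or more in induced libraries of clones 1 and 2 and stays at 5.31% or less in clone 3, and the Igfbp5 segment is widest in clone 1.

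The ligand Igf1 (ENSMUSG00000020053, chromosome 10, 87858265 to 87937042) was 350.0, 361 and 399 CPM in MEF for clones 1, 2 and 3, and 323, 332 and 395 CPM in MEF+B12. It was 310.2, 312 and 421 CPM in OSKM, and 291, 324 and 388 CPM in OSKM+B12. Clone 3 was highest in every group, and the groups overlapped. Its log2 fold change with induction was -0.10 ± 0.06 without B12 and -0.07 ± 0.06 with B12. Per kb, Igf1 amounted to 1.72% to 2.17% of the summed binding protein level, and Igf2, the other ligand, to 2.82% to 3.52%. These are ratios of RNA and not of protein.

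The receptor Igf1r (ENSMUSG00000005533, chromosome 7, 67952827 to 68233668) was 50.6, 59.5 and 58.8 CPM in MEF for clones 1, 2 and 3. It was 45.4, 45.1 and 55.0 CPM in OSKM, and the groups overlapped through clone 3. With B12 it was 47.5, 48.3 and 54.4 CPM in MEF+B12 and 45.5, 44.1 and 48.8 CPM in OSKM+B12. It was lower in the induced library in all 6 pairs of the same clone and B12 condition, with a log2 fold change of -0.22 ± 0.06 without B12 and -0.11 ± 0.06 with B12.

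Across the set, 7 of the 8 genes had a negative log2 fold change with induction in each B12 condition, and Igfbp6 had a positive one. The median was -0.17 without B12, where 52.0% of all tested genes were negative, and -0.14 with B12, where 49.4% were. The induction test called 0 of the 8 genes without B12, beside 14 of all genes or 0.0730%, and 0 with B12, beside 20 or 0.104%. At an unadjusted p under 0.05 it gave 5 and 4 of the 8, beside 3641 and 2854 of the 19174 genes tested. DESeq2 called 2 and 1 of the 8, beside 492 and 420 of all genes. The test for unequal induction among the 3 clones (edgeR F test over clone-by-state terms) called 2 of the 8, beside 413 of all genes or 2.15%. Since induction chose the set, nothing is read from these counts.

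The genes with the profile most like that of Igfbp6 were Ces2g, Sox13 and Crip2, taken from 11923 genes by the root mean square difference of centred log2 CPM over the 12 libraries. The differences were 0.11 for Ces2g (an esterase), 0.12 for Sox13 (a Sox family transcription factor) and 0.12 for Crip2 (a LIM domain protein). Crip2 was 12.1 to 16.3 CPM in uninduced libraries, 27.5 to 32.6 CPM in induced clones 1 and 2, and 12.6 to 14.7 CPM in induced clone 3. For Igfbp5 the most alike genes were Col15a1 (a basement membrane collagen, 0.10), St8sia2 (a polysialyltransferase, 0.10) and Mcam (a cell adhesion molecule, 0.13). Col15a1 was 86.7 to 107 CPM in clone 1 and 43.5 to 54.0 CPM in clones 2 and 3. These are descriptions over 12 libraries from only 3 embryos.

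**Figure D4:**
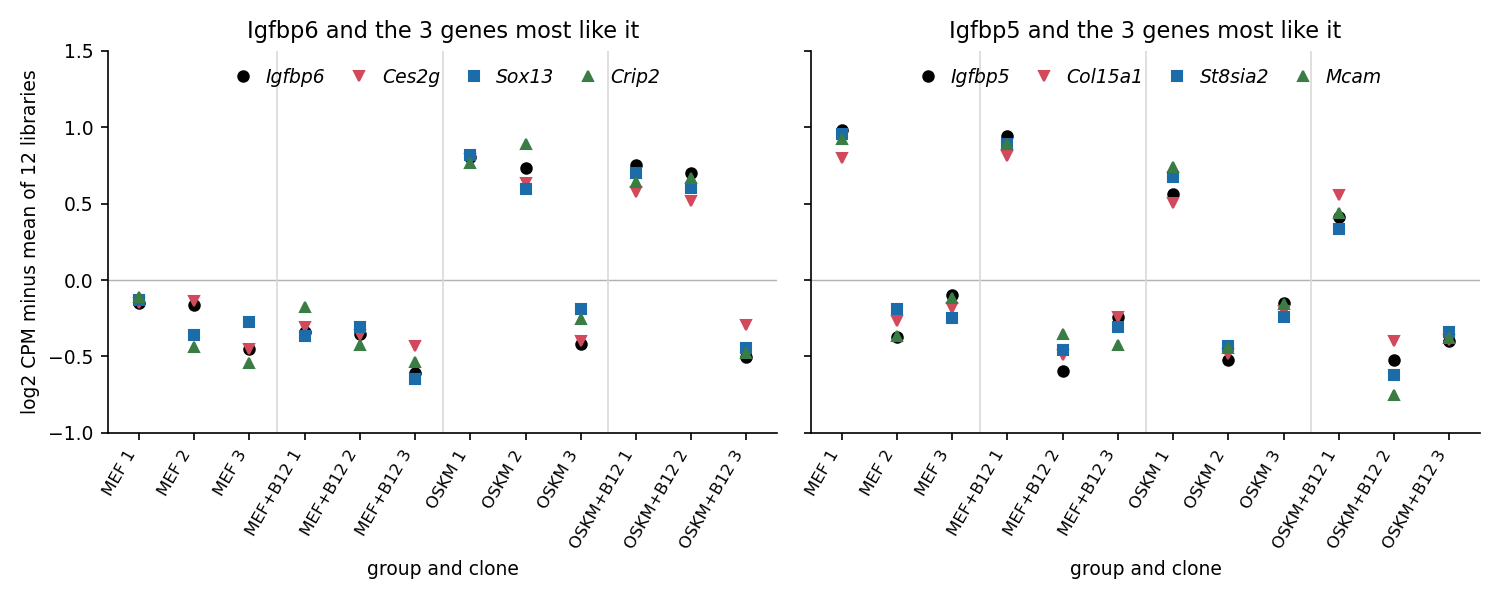
Log2 CPM minus the mean of the 12 libraries (y axis) for Igfbp6 (left) and Igfbp5 (right) with the 3 genes most like each, by group and clone (x axis). The left set is high in clones 1 and 2 when induced, and the right set is high in the 4 libraries of clone 1.

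Cell type markers also differed between the clones in their response to induction. The summed level of 4 adventitial fibroblast markers (Pi16, Dpp4, Ly6a and Cd34) was 632 to 844 CPM in the uninduced libraries of the 3 clones. In induced libraries it was 1088 to 1104 CPM in clone 1, 1246 to 1279 CPM in clone 2 and 727 to 759 CPM in clone 3, and 3 of the 4 markers passed the clone difference test, which called 2.15% of all genes. Pi16 alone was 9.15 to 17.9 CPM uninduced, 132 to 151.5 CPM in induced clones 1 and 2 and 22.8 to 24.9 CPM in induced clone 3. The sum of 8 epithelial and mesothelial markers was 16.8 to 26.2 CPM uninduced, 48.4 to 64.9 CPM in induced clones 1 and 2 and 22.6 to 25.6 CPM in induced clone 3, with 4 of 7 tested markers passing, while Epcam had at most 9 counts. The sum of 6 endothelial markers was 44.1 to 48.3 CPM uninduced, 128 to 147 CPM in induced clones 1 and 2 and 52.6 to 56.7 CPM in induced clone 3. Most of that sum was Tek, whereas Pecam1 had at most 19 counts and Emcn at most 3. Of 4 tested endothelial markers, 2 passed the clone difference test. The sum of 12 fibroblast markers was lower in induced libraries of clone 1, at 85237 to 91253 against 111805 to 113734 CPM, and of clone 2, at 97095 to 100212 against 111431 to 136744 CPM. In clone 3 it was 100905 to 112171 CPM induced and 108322 to 115571 CPM uninduced, and 0 of the 12 markers passed the clone difference test with edgeR. At an unadjusted p under 0.05 it gave 6 of the 12, beside 2842 of the 19174 genes tested. Most of the fibroblast sum was collagen, with MEF means of 41461 CPM for Col1a1, 33721 for Col1a2 and 39665 for Col3a1, beside 122017 summed. Of the 12 estimates with induction, 7 were positive and 5 negative without B12 (median 0.03), and 6 and 6 with B12 (median -0.02). The sum of 5 neural and glial markers went from 37.0 to 40.3 CPM uninduced to 31.5 to 31.9 CPM induced in clone 1, from 23.8 to 24.0 to 19.9 to 20.1 CPM in clone 2, and from 24.7 to 27.9 to 24.7 to 26.9 CPM in clone 3. The sum of 6 muscle markers was 6.88 to 10.5 CPM uninduced and 5.58 to 7.89 CPM induced in clones 1 and 2, and 9.91 to 10.6 CPM in clone 3. For 11 macrophage markers the sum was 2285 to 3027 CPM uninduced and 2114 to 2417 CPM induced in clone 1. It was 1580 to 2442 and 1310 to 2214 CPM in clone 2, and 1195 to 1811 and 1205 to 1837 CPM in clone 3. Of these 11 markers, 2 passed the clone difference test. The part of cell types in the values of Igfbp6, Igfbp2 and Igfbp4 was not tested, and in bulk RNA fewer cells of a type and less RNA per cell cannot be told apart.

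Estimates with vitamin B12 were small and negative for the 8 genes, and none passed the edgeR test with group and clone as terms, whereas Igfbp3 and Igfbp6 passed under other models. In induced cells the test called 204 of all genes (1.06%) and 0 of the 8, with log2 fold changes from -0.13 for Igfbp5 to -0.05 for Igfbp4, Igfbp6 and Igf1. In uninduced cells it called 264 of all genes (1.38%) and 0 of the 8, with log2 fold changes from -0.17 for Igfbp6 and Igf1r to -0.05 for Igfbp4. At an unadjusted p under 0.05 these comparisons gave 1 and 2 of the 8, beside 1883 and 1972 of the 19174 genes tested. DESeq2 called 0 of the 8 in either, beside 385 and 461 of all genes. The smallest adjusted p was 0.448 in induced cells, for Igfbp7, and 0.307 in uninduced cells, for Igf1r. In uninduced cells Igfbp6 was lower with B12 in each clone, by 0.19, 0.19 and 0.15 on the log2 scale. Fitted to the 6 uninduced libraries only, edgeR called Igfbp6 (-0.17 ± 0.03, adjusted p = 0.0153, over its 12 alternatives 0.0153 to 1) beside 845 genes or 4.58%, where the unadjusted p was below 0.05 for 7 of the 8. With clone-by-state terms, a model added after the data were seen in which each clone has its own response to induction, Igfbp6 was also called (-0.18 ± 0.04, adjusted p = 0.0354) beside 443 genes or 2.31%. Without these terms the unequal induction of the clones stays in the residual. In induced cells the SE of Igfbp6 was 0.19 without them and 0.03 with them, where edgeR did not call it (adjusted p = 0.5135).

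Averaged over both states, B12 called 736 of all genes (3.84%) and 0 of the 8. All 8 estimates were negative, between -0.13 and -0.05 with a median of -0.11, whereas the median over all genes was -0.01 and 55.1% were negative. Igfbp3 had -0.12 ± 0.04 (95% interval -0.20 to -0.04, edgeR adjusted p = 0.116) and was lower with B12 in 6 of 6 pairs of the same clone and state. DESeq2 called it (adjusted p = 0.00901), beside 5.54% of all genes. With clone-by-state terms edgeR called Igfbp3 (adjusted p = 0.0317) and Igfbp6 (-0.12 ± 0.02, adjusted p = 0.0265), beside 1081 genes or 5.64%. Igfbp7 had -0.10 ± 0.03 (adjusted p = 0.164) and was also lower in 6 of 6 pairs. Igfbp2, Igfbp4, Igfbp5 and Igfbp6 were lower in 6 of 6 pairs as well, by as little as 0.00 to 0.03 on the log2 scale in the smallest pair, and Igf1 and Igf1r in 5 of 6. For Igf1 the average was -0.07 ± 0.04 (adjusted p = 0.475). The 8 genes share the same 6 pairs of libraries, so their common sign is not 8 separate results.

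**Figure D5:**
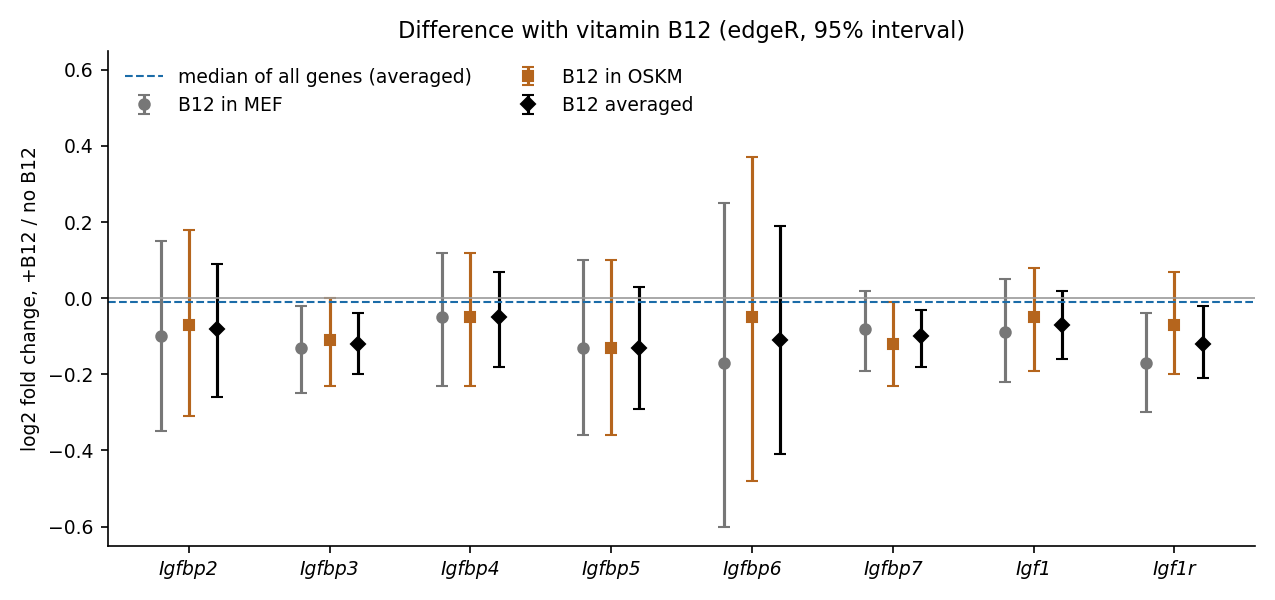
Log2 fold change with B12 (y axis) of the 8 genes (x axis) in MEF, in OSKM and averaged over both, with 95% intervals of the edgeR fit and the median of all genes as a dashed line at -0.01. All estimates lie below 0, and the averaged intervals of Igfbp3, Igfbp7 and Igf1r exclude 0 before adjustment.

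Cell type markers moved with B12 in the same libraries. Of 11 macrophage markers, 10 passed the averaged test as higher with B12 (median log2 fold change 0.51 over the 11). The eleventh, Cx3cr1, was lower with B12 in 6 of 6 pairs, with differences of -0.61 to -0.38 on the log2 scale, with an average of -0.45 ± 0.20 (edgeR adjusted p = 0.296). Their summed level was 1195 to 2285 CPM in MEF and 1811 to 3027 CPM in MEF+B12, and 1205 to 2114 CPM in OSKM and 1837 to 2417 CPM in OSKM+B12. Of 12 fibroblast markers, 0 passed, all 12 estimates were negative and their median was -0.11, the same as that of the 8 IGF axis genes. DESeq2 called 1 of the 12. The part of this shift in the IGF axis values was not tested.

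The interaction, which asks whether B12 acted differently in induced and uninduced cells, called 0 of the 8 genes and 0 of all genes (0%) with edgeR and with DESeq2. At an unadjusted p under 0.05 edgeR gave 0 of the 8 and 273 of all genes. The estimates of the 8 lay between -0.04 and 0.12. For Igfbp6 the interval ran from -0.48 to 0.72 in the model without clone-by-state terms, which leaves the unequal induction of its clones in the residual, and from 0.01 to 0.23 with those terms (adjusted p = 0.992). Within clones 1, 2 and 3 the B12 difference of Igfbp6 in induced cells exceeded that in uninduced cells by 0.14, 0.15 and 0.07 on the log2 scale.

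Another 41 genes of the IGF pathway were listed, and 40 passed the filter. Igfbp1, the liver binding protein, did not pass. Induction called 0 of the 40 in either B12 condition, beside 0.0730% of all genes without B12 and 0.104% with B12. At an unadjusted p under 0.05 it gave 10 and 5 of the 40, beside 3641 and 2854 of the 19174 genes tested. DESeq2 called 2 and 2, beside 492 and 420 of all genes. The median was -0.07 without B12, with 27 of 40 negative, and -0.02 with B12, with 23 negative. Igf2 was 291 to 388 CPM over the 12 libraries with a log2 fold change with induction of -0.07 ± 0.05 (adjusted p = 0.419). Igf2r, the receptor that clears IGF2, was 385 to 579 CPM with a log2 fold change of -0.25 ± 0.10 (adjusted p = 0.220).

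Pappa, the protease of IGFBP4, was named after its values were seen. It was 24.7, 50.1 and 61.6 CPM in MEF for clones 1, 2 and 3, and 21.3, 30.1 and 54.5 CPM in MEF+B12. It was 17.5, 22.1 and 50.1 CPM in OSKM, and 16.9, 22.1 and 38.8 CPM in OSKM+B12. As for its substrate Igfbp4, clone 1 was lowest and clone 3 highest in all 4 groups. Its log2 fold change with induction was -0.66 ± 0.13 without B12 (edgeR adjusted p = 0.144) and -0.42 ± 0.13 with B12 (adjusted p = 0.188). Over the alternatives the adjusted p without B12 ran from 0.00044 with DESeq2 to 0.840 without the clone block. The clone difference called 0 of the 40 pathway genes with edgeR, beside 413 of all genes, and 0 with DESeq2, beside 600. At an unadjusted p under 0.05 it gave 4 of the 40, beside 2842 of the 19174 genes tested.

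Pik3cb, a catalytic subunit of PI3K, rose with B12. It was 7.08, 7.30 and 7.41 CPM in MEF for clones 1, 2 and 3 and 10.2, 10.0 and 11.2 CPM in MEF+B12. It was 6.29, 5.62 and 7.72 CPM in OSKM and 6.35, 8.01 and 9.60 CPM in OSKM+B12. The uninduced groups did not overlap, and the induced ones did. The log2 fold change was 0.53 ± 0.11 in uninduced cells (adjusted p = 0.0416) and 0.40 ± 0.08 averaged over both states (adjusted p = 0.0127), and 0.28 ± 0.11 in induced cells (adjusted p = 0.416), a difference between states that did not pass (adjusted p = 1). The call in uninduced cells was lost when any 1 clone was left out and without the clone block, and the averaged call without clone 2, without clone 3 or without the block. Of 11 macrophage markers, 10 also passed the averaged test as higher with B12, and 1 had a negative estimate. The part of that shift in the values of Pik3cb and the other pathway genes was not tested. The other 39 tested pathway genes did not pass a B12 comparison in the edgeR fit with group and clone as terms. That fit called 1.38% of all genes in uninduced cells and 3.84% for the average. Grb2, an adaptor that links receptors to the MAP kinases, was higher with B12 in 6 of 6 pairs, by 0.05 to 0.18, with an average of 0.13 ± 0.04 (adjusted p = 0.0843). It was called for the average with DESeq2, with library totals and with clone-by-state terms. Of the others, Grb10 was called for the average with DESeq2, Pappa with no filter, and Irs1 in uninduced cells when only those libraries were fitted, and these were named after their values were seen. Over its 11 alternatives the averaged comparison called 34 to 1081 of all genes. Over the pathway, 33 of 40 estimates of the average were negative with a median of -0.06.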

How the data were processed

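Strand-specific poly(A) libraries were sequenced as read pairs, aligned with STAR 2.5.2 per the submitters' processing notes to mm10 (GRCm38), and counted with featureCounts in reverse-stranded mode. What the authors deposited are raw counts, with the flow cells of each library summed. The labels give doxycycline at 1 µg/ml, and the study's methods give another concentration. Gene symbols, coordinates (1-based) and exon lengths came from GENCODE M21 on the same build (55480 of 55573 identifiers matched, 93 did not), and start windows from RefSeq. Counts carry no molecular identifiers.

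Here edgeR 4.0.16 (R 4.3.3) was used with filterByExpr by group, TMM factors of 0.934 to 1.06, and quasi-likelihood F tests with Benjamini-Hochberg adjustment over all genes at a threshold of 0.05. 1 fit over 12 libraries had group and clone as terms. The clone difference was tested in a second model of clone, state, clone by state, and B12 nested in state. Clone entered as a block, each embryo having given 1 library per group. Libraries of the same clone deviated together from their group means (correlations across genes of 0.270 to 0.687 over 18 pairs, against at most 0.170 over 36 pairs of different clones). In the first fit, p-values rest on a residual for each gene pooled over the 4 groups, with the level of each clone taken out. For B12 comparisons that residual also holds the unequal induction of the clones. With clone-by-state terms, the response of each clone to induction is taken out as well. A prior count of 2 was used for log2 CPM. The fit was also run on simulated data, with a B12 difference set in induced cells and clone shifts equal in all groups. Those data held no unequal induction between clones, so they do not show how the fit handles it.

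The 8 genes, the pathway and marker lists and the naming rule were chosen with earlier results of these data known. Named were all 8 genes, pathway genes past the threshold (at most 3 per direction), the 3 genes most alike to members with an SD over 0.5 in log2 CPM (among tested genes with a mean log2 CPM of at least 1 and no predicted symbol), and the factors. Alternatives were DESeq2 1.42.0, other scalings and filters, no block, leaving out each clone or the OSKM library of clone 1, and fits to the compared libraries only. B12 fits with clone-by-state terms were added after the data were seen.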

Additional observations from a re-analysis of the deposited data

How the results depend on the processing

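Under the alternatives, 454 of 456 log2 fold changes of the 8 genes with induction or B12 kept their sign. The exceptions were B12 in induced cells for Igfbp2, at 0.00 without clone 3 (-0.17 to 0.00 over the left-out clones and library), and for Igfbp6, at 0.06 without the OSKM library of clone 1 (-0.07 to 0.06). The clone block, which pairs libraries of the same embryo, is part of the design. Without the block 0 of the 8 genes passed for induction or B12, and Pik3cb was lost, so that 0 pathway genes passed for B12 in MEF or averaged. Among the 8 genes, induction without B12 called 2 with DESeq2 and 3 with no filter, induction with B12 called 1 and 3, and each ranged from 0 to 3 when a clone was left out. B12 averaged called 1 of the 8 with DESeq2 and 2 with clone-by-state terms, and B12 in MEF called 1 when fitted to the compared libraries only and 1 with clone-by-state terms, an alternative added after the data were seen. The clone difference called 4 of the 8 with DESeq2 and 4 with no filter, and 0 to 3 when a clone was left out. Of the pathway genes, induction without B12 called 2 with DESeq2 and 3 with no filter (0 to 4 with a clone left out), and induction with B12 called 2 and 2. B12 in MEF called 2 in the compared libraries only (0 to 1 with a clone or library left out), and B12 averaged called 3 with DESeq2, 2 with library totals, 2 with no filter and 2 with clone-by-state terms (0 to 1 with a clone or library left out). The clone difference called 1 with library totals and 3 with no filter, and 0 to 2 with a clone or library left out. The cause of these changes was not tested.

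Over all genes, induction without B12 called 14 (0 without the block, 1322 without clone 3, 492 with DESeq2, 681 with no filter) and induction with B12 called 20 (0, 1004, 420 and 646). B12 in OSKM called 204 (0 without the block, 385 with DESeq2, 364 with no filter, 0 without clone 2, 13 without clone 3 108 in the compared libraries and 344 with clone-by-state terms). B12 in MEF called 264 (0, 461, 425, 0, 29 and 845, 409 with library totals and 443 with clone-by-state terms). B12 averaged called 736 (90 without the block, 34 without clone 2, 317 without clone 3). Over its 11 alternatives, library totals and no filter among them, it called 34 to 1081. The clone difference called 413 (1257 with no filter, 724, 195 and 0 without clones 1, 2 and 3, and 838 without the OSKM library of clone 1). Over its 9 alternatives, library totals among them, it called 0 to 1257.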
